A study of Mus musculus with 6 samples.

Results

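The ADAM, ADAMTS and ADAMTS-like genes of epididymal white fat, a visceral depot next to the epididymis, are described here in Eepd1 knockout mice (EKO) and wild-type mice (WT). Members were all protein-coding rows of the deposited table whose gene name is Adam, Adamts or Adamtsl followed by a number and at most 1 letter. The rule found 57 genes among 32244 listed genes: 33 ADAM, 19 ADAMTS and 5 ADAMTS-like (Adamtsl) genes. Measured values played no part in the rule. All mice were C57BL/6J and ate a high-fat diet over 3 months, and bulk mRNA sequencing gave 3 EKO and 3 WT libraries. Neither the deleted stretch of Eepd1 nor the animal behind each library is named in the labels, and the spread that the p-values rest on may therefore be technical. Where 3 values are given for a genotype, they belong to its replicates 1, 2 and 3, in that order.

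ADAM proteins are membrane-anchored relatives of snake venom proteases, with a prodomain, a zinc metalloprotease domain and a disintegrin domain. Several of them, ADAM10 and ADAM17 above all, are sheddases that cut growth factors, cytokines and receptors off the cell surface, while others have no working protease site and act in cell adhesion or, in rodents, in the meeting of sperm and egg. ADAMTS proteases are secreted, carry thrombospondin repeats and cut matrix proteins such as procollagens and the proteoglycans versican and aggrecan, and ADAMTS-like proteins share their repeats but have no protease domain. In growing fat these enzymes are known for remodelling the matrix around adipocytes and for releasing inflammatory mediators.

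Active metalloproteases of these families bind zinc through a short histidine motif, and the coding stretch of that site is given for the genes described in most detail. The sequences come from the GENCODE M21 transcripts (GRCm38), from the longest coding sequence of each gene, 5′ to 3′ in the coding direction. Each has 36 bases, and capitals mark the codons of the 3 histidines that hold the zinc ion.
Adam8: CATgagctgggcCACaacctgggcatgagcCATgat
Adam10: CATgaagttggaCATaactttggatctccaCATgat
Adam17: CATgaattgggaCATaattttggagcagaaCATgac
Adamts2: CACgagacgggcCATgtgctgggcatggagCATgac
Adamts14: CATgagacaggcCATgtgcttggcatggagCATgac
Adamts15: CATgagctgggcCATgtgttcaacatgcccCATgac
Adamts9: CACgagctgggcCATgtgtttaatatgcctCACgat
Adamts5: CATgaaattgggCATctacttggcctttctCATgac

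The metzincin zinc-binding motif, searched in the translated coding strand with either a glycine or an asparagine codon in its middle, was found in 38 of the 57 members, and in 74 (0.338%) of 21901 mouse coding genes. It was found in 9 of 9 somatic ADAM proteases, in 9 of 9 ADAMTS genes outside the procollagen and proteoglycan groups, in 3 of 3 procollagen N-propeptidases, and in 6 of 7 proteoglycanases, with no match in Adamts8. It was found in none of the 5 ADAMTS-like genes, none of the 3 ADAMs known as adhesion proteins (Adam11, Adam22 and Adam23), and in 11 of 21 testis and epididymis ADAMs. The middle codon was asparagine in 5 members, all proteoglycanases (Adamts1, Adamts4, Adamts9, Adamts15 and Adamts20), and in no other coding gene. Adamts2 and Adamts14, both procollagen N-propeptidases, had 33 of the 36 bases in common.

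Total counts were 17400289, 17229585 and 17215072 in EKO and 17400290, 18264684 and 18330206 in WT. Levels below are CPM, read counts divided by library size with TMM factors that adjust for depth and composition, and 3 counts correspond to 0.154 to 0.192 CPM, a limit that covers counting error only. Eepd1 itself stood at 152, 47.7 and 116 CPM in EKO and at 244, 304 and 192 CPM in WT. Replicate 2 of WT stood apart from the other libraries. Its 16 testis germ cell markers summed to 2930 CPM, against 58.2 to 224 CPM in the EKO libraries and 84.2 and 116 CPM in the other WT libraries. EKO replicate 3 had the second highest sum, 224 CPM. Values without WT replicate 2, or without both, are given beside a part of the results.

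Of the 57 members, 37 had enough counts to be tested, and the remaining 20 comprise 15 testis and epididymis ADAMs and 5 others. The edgeR quasi-likelihood test called 0 of the 37 at an adjusted p under 0.05, as it called 0 (0.00%) of all 16121 genes tested, so no member is said to have changed in that test. At an unadjusted p under 0.05 there were 9 higher and 5 lower members, against 18.9% higher and 13.8% lower among all genes tested. By their values, 11 of the 37 had all 3 EKO libraries above all 3 WT libraries and 4 had them below, where 25.1% and 17.7% of all genes did. The DESeq2 Wald test on the same counts called 5 members as higher and 4 as lower, against 11.7% and 11.3% of all genes. DESeq2 gave no adjusted p for 7 of the 37, and genes without one count as not called, here and in the shares of all genes. The authors' deposited table marks 4 members as significant and higher and 2 as lower, against 2.55% and 2.52% of its rows. The higher ones in the authors' deposited table are Adam8 (log2 2.24), Adamts14 (1.49), Adamts15 (1.35) and Adamtsl5 (1.31), and the lower ones Adamtsl1 (-1.36) and Adam1a (-2.04). Adam17, Adamts9 and Adamtsl4 were not marked, at the authors' adjusted p of 0.0308, 0.0156 and 0.00745 and log2 differences of 0.85, -0.79 and -0.92. Adam1a was marked at the authors' adjusted p of 0.0381, so the mark did not follow the adjusted p alone. The median log2 difference was 0.04 over the tested members and 0.02 over all genes tested, with 19 members higher and 18 lower. That median mixes 2 kinds of member. The 6 tested testis and epididymis ADAMs were all lower, at a median of -3.90 that was 1.22 without WT replicate 2. Of the 31 tested members outside that group, 19 were higher and 12 lower. Their median was 0.41, and 0.04 without WT replicate 2.

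**Figure D1:**
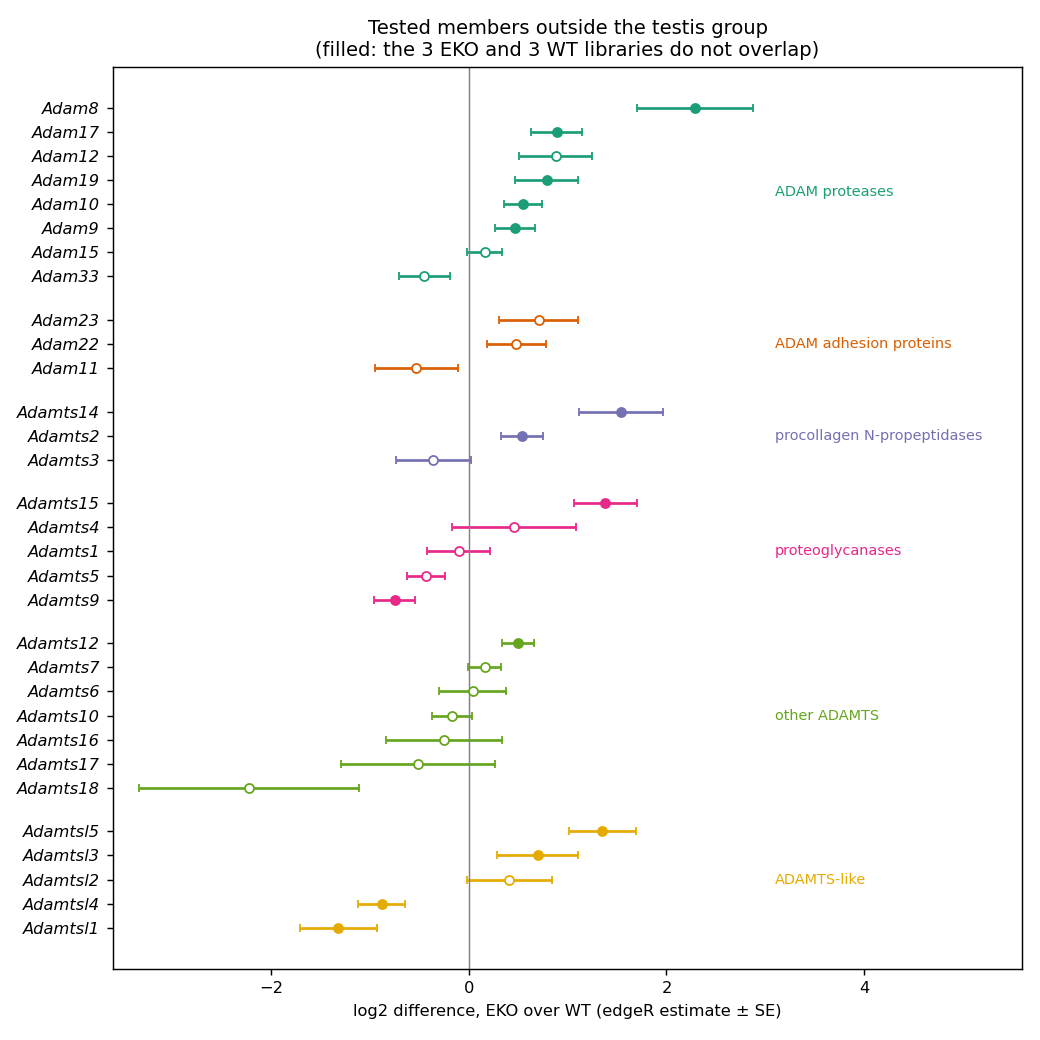
Log2 difference of EKO over WT (horizontal axis, edgeR estimate with its standard error as bars) for the 31 tested members outside the testis and epididymis group, grouped by role. Filled points are members whose 3 EKO and 3 WT libraries do not overlap, and Adam8 lies farthest to the right at 2.29.

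Among the members outside the testis and epididymis group, Adam8 had the highest mean CPM in EKO and the largest fitted difference between the genotypes, while in WT the mean of Adamts5 (357 CPM) was above that of Adam8 (234 CPM). It encodes a protease and adhesion protein made mainly by myeloid cells such as neutrophils and macrophages. The gene (ENSMUSG00000025473) lies on the minus strand of chromosome 7, from 139978932 to 139992562 (GRCm38). It stood at 980, 1544 and 921 CPM in EKO and at 264, 73.4 and 365 CPM in WT. Every EKO library was thus above every WT library, with the lowest value in WT replicate 2. The means were 1148 ± 344 CPM in EKO and 234 ± 148 CPM in WT (SD, n = 3 each), a 4.90-fold difference (log2 2.29 ± 0.59 SE, edgeR adjusted p = 0.0674, range 0.000640 to 0.233 over all alternatives). The DESeq2 adjusted p was 0.000640. Without WT replicate 2 the log2 difference was 1.81 and the edgeR adjusted p 0.0460, which made Adam8 the 1 member called as higher in that fit, with 0 called as lower, against 1.96% and 0.727% of all genes. With EKO replicate 3 also left out, log2 difference and adjusted p were 1.93 and 0.0963.

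Macrophage markers lay on the same side as Adam8. All 12 listed markers were higher in EKO by their means, with a median log2 difference of 1.45. Their summed level was 11145, 21196 and 12150 CPM in EKO and 4649, 2029 and 5007 CPM in WT. EKO replicate 2 was highest and WT replicate 2 lowest in both that sum and Adam8. Markers of other immune cells also lay higher, with 8 of 8 mast cell markers higher by their means (median log2 difference 3.24) and sums of 146, 814 and 357 CPM in EKO and 53.5, 73.7 and 66.3 CPM in WT. Of the T and B cell markers 8 of 9 were higher, with overlapping sums of 20.1, 19.8 and 84.1 CPM in EKO and 11.5, 32.1 and 40.7 CPM in WT. The part of macrophages and other immune cells in the Adam8 difference was not tested. In bulk tissue, fewer cells of a type and less RNA per cell cannot be told apart.

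Per kilobase of exon, Adam8 was also the member with the highest level. Its mean was 248 CPM per kilobase in EKO and 50.5 in WT, followed by Adam9, a widely expressed sheddase, at 67.4 in EKO and 48.6 in WT. In WT these neighbours in the order overlapped, since Adam8 ranged from 15.8 to 78.8 CPM per kilobase and Adam9 from 40.8 to 54.1, while in EKO the lowest Adam8 value (198) was above the highest Adam9 value (85.2). The next levels per kilobase, in EKO and in WT, were those of Adam10 (37.8 and 25.8), Adam15 (31.0 and 27.7), Adamts2 (29.3 and 20.2) and Adamts5 (24.5 and 33.1). Adam8 made up 33.5%, 38.5% and 33.1% of the summed CPM of the 57 members in EKO and 12.8%, 3.56% and 16.2% in WT. Without Adam8 and the testis and epididymis group, the summed level was 1945, 2461 and 1823 CPM in the EKO libraries and 1795, 1387 and 1888 CPM in the WT libraries, and the genotypes overlapped.

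**Figure D2:**
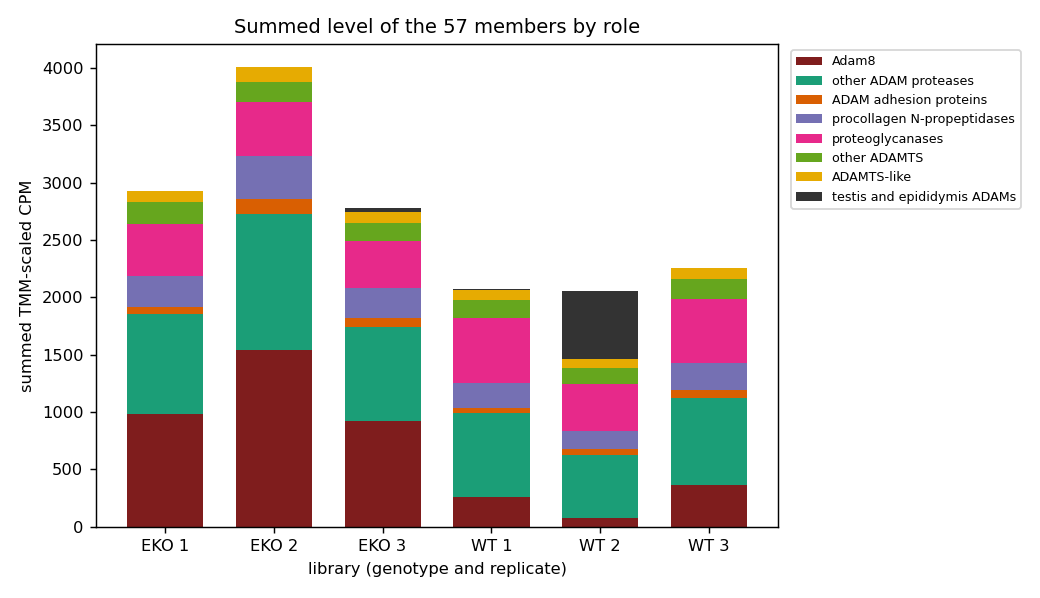
Summed TMM-scaled CPM (vertical axis) of the 57 members in each library, stacked by role, with Adam8 drawn apart from the other ADAM proteases. Adam8 takes 33.1% to 38.5% of the sum in the EKO libraries and 3.56% to 16.2% in the WT libraries, and the testis and epididymis group is visible chiefly in WT replicate 2, at 599 CPM.

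The main sheddases stood higher in EKO by smaller differences. Adam17 (ENSMUSG00000052593, chromosome 12, 21323509 to 21373632, minus strand) releases tumour necrosis factor and ligands of the epidermal growth factor receptor. It stood at 125, 163 and 122 CPM in EKO and at 86.0, 47.3 and 88.0 CPM in WT, without overlap. The means of 137 ± 22.8 CPM in EKO and 73.8 ± 22.9 CPM in WT (SD, n = 3 each) differed 1.85-fold (edgeR adjusted p = 0.0811, DESeq2 adjusted p = 0.0262, range 0.0262 to 0.299 over all alternatives). Its exons share 311 bases with Iah1 on the opposite strand, 4.35% of its exon bases. If strand was not used in counting, which is not stated, a few of its reads could not be told apart from that gene. Without WT replicate 2 its log2 difference was 0.59, against 0.89 with all libraries.

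Adam10, which starts Notch activation by cutting the receptor, stood at 164, 224 and 169 CPM in EKO and at 129, 104 and 148 CPM in WT. The groups did not overlap, at a 1.46-fold difference (edgeR adjusted p = 0.107). Adam9 stood at 244, 351 and 238 CPM in the EKO libraries and at 210, 168 and 223 CPM in the WT libraries, also without overlap but with only 1.39 times the WT level. Adam19, a sheddase of neuregulin, stood at 66.9, 43.6 and 48.0 CPM in EKO and at 39.8, 17.9 and 33.7 CPM in WT, again without overlap (1.73-fold, edgeR adjusted p = 0.143). In all 3 genes WT replicate 2 was the lowest library, and without it the log2 differences were 0.37 for Adam10, 0.30 for Adam9 and 0.47 for Adam19.

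Other ADAM proteases overlapped between the genotypes. Adam12, a marker of mesenchymal progenitors and fibrosis, stood at 82.0, 154 and 73.4 CPM in EKO and at 76.5, 37.6 and 54.3 CPM in WT, so that EKO replicate 2 stood well above the rest. Its log2 difference was 0.88 ± 0.37 SE and lay between 0.44 and 1.14 when single libraries were left out. Adam15, an endothelial and epithelial ADAM, stood at 179, 236 and 155 CPM in EKO and at 168, 155 and 187 CPM in WT, with 20.55% of its exon bases shared with an antisense gene. Adam33, a smooth muscle and fibroblast ADAM, was the single tested member of this group that was lower by its mean, at 15.2, 10.3 and 17.9 CPM in EKO and 15.8, 19.1 and 24.3 CPM in WT. Over the 8 tested somatic ADAM proteases, 7 were higher and 1 lower; the median log2 difference was 0.67 (0.42 without WT replicate 2), and 0 passed the edgeR test. Adam28, known from lymphocytes and from the mouse epididymis, had no count in any EKO library and 7, 2 and 0 counts in WT.

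Adam22 and Adam23, receptors of the neuronal LGI proteins that do not act as proteases, were detected too. Adam23 stood at 39.2, 120 and 60.2 CPM in EKO and at 36.7, 43.8 and 52.9 CPM in WT, with EKO replicate 2 alone far above. Its log2 difference of 0.71 was 0.14 without EKO replicate 2. Adam22 stood at 17.7, 9.17 and 12.9 CPM in EKO and at 10.5, 7.35 and 10.7 CPM in WT. Adam11, the third of these adhesion proteins, averaged 2.70 ± 1.06 CPM in EKO and 3.90 ± 1.42 CPM in WT. None of the 3 had separate groups.

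**Figure D3:**
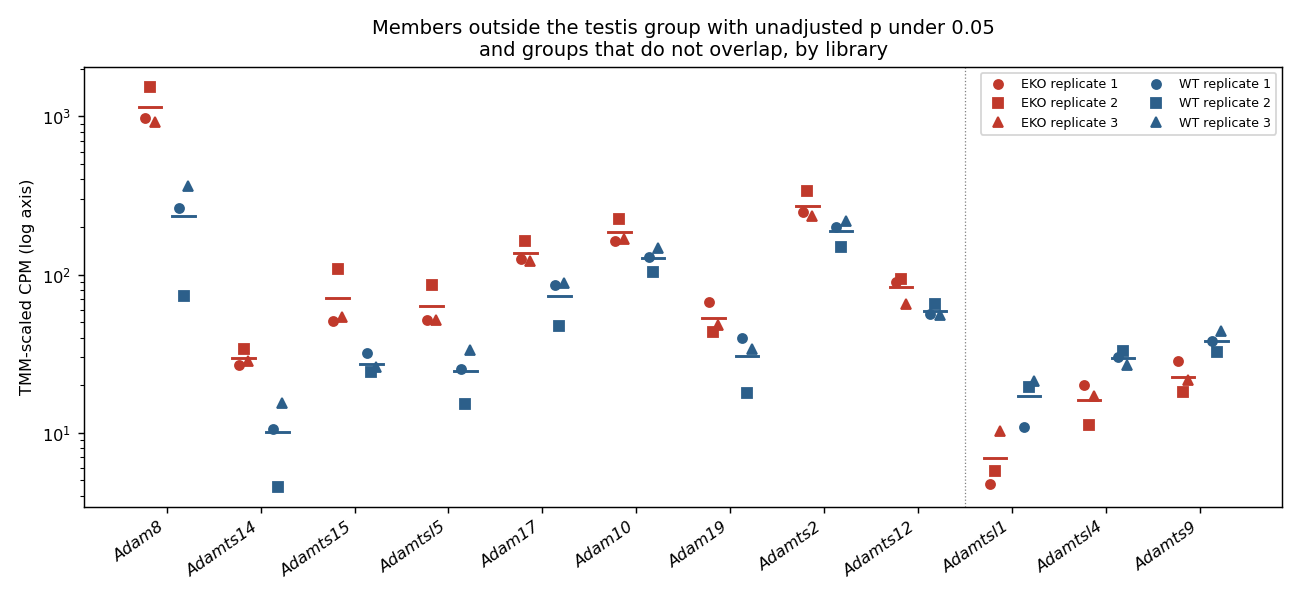
TMM-scaled CPM (log axis) of the 12 members outside the testis and epididymis group that had an unadjusted p under 0.05 and groups that do not overlap, with 1 symbol per library, EKO left of WT for each gene, and a line at each mean. The 9 genes left of the dotted line were higher in EKO and the 3 right of it lower, and WT replicate 2 (blue square) was the lowest library for 8 of the 9.

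Of the 3 enzymes that trim the amino-terminal propeptide off fibrillar procollagens, Adamts14 and Adamts2 had separate groups with EKO above WT, Adamts3 had a lower mean in EKO, and none passed the edgeR test. Adamts14 (ENSMUSG00000059901, chromosome 10, 61197112 to 61273438, minus strand) stood at 26.8, 33.7 and 28.3 CPM in EKO and at 10.5, 4.57 and 15.5 CPM in WT. The lowest EKO library was thus above the highest WT library, and the EKO libraries lay close together. The means of 29.6 ± 3.62 CPM in EKO and 10.2 ± 5.47 CPM in WT (SD, n = 3 each) differed 2.90-fold (log2 1.54 ± 0.42 SE, edgeR adjusted p = 0.0721, DESeq2 adjusted p = 0.00652, range 0.00652 to 0.253 over all alternatives). Without WT replicate 2 the log2 difference was 1.13, with an edgeR adjusted p of 0.0508. Adamts2, the main propeptidase of collagen I, stood at 248, 338 and 234 CPM in EKO and at 199, 149 and 217 CPM in WT, without overlap and at a 1.45-fold difference (edgeR adjusted p = 0.135, DESeq2 adjusted p = 0.120). Its log2 difference was 0.54, and 0.34 without WT replicate 2. Adamts3, the remaining member of this group, which also activates the lymphatic growth factor VEGF-C, reached at most 2.34 CPM in a library, with means of 1.43 ± 0.534 CPM in EKO and 1.84 ± 0.436 CPM in WT.

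Other genes of procollagen processing lay on both sides, with more of them higher. Pcolce, which enhances removal of the opposite propeptide, stood at 135, 249 and 156 CPM in EKO and at 68.7, 73.6 and 91.5 CPM in WT. Bmp1, the protease that removes it, stood at 139, 204 and 129 CPM in EKO and at 89.0, 65.5 and 102 CPM in WT. Both had separate groups, at 2.31-fold and 1.84-fold. The substrate chains Col3a1 and Col5a2 were 2.57-fold and 2.31-fold higher by their means. The 3 lower genes of the list, named after their values were seen, were Tgfbr3, Tll1 and Pcolce2, at log2 differences of -0.43, -0.78 and -0.48. Tgfbr3 encodes a receptor for transforming growth factor beta and is not itself a processing gene, but it is counted with the list below. Of 12 listed genes 10 were tested, 7 were higher and 3 lower. The median log2 difference was 0.83 (0.66 without WT replicate 2), beside 0.02 over all genes in either fit. DESeq2 called 6 of them as higher and 1 (Tgfbr3) as lower, beside 11.7% and 11.3% of all genes, and edgeR 0.

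The proteoglycanases lay on both sides. Adamts15 (ENSMUSG00000033453, chromosome 9, 30899155 to 30922452, minus strand), a versican-cleaving protease, stood at 51.2, 108 and 54.3 CPM in EKO and at 31.8, 24.2 and 25.9 CPM in WT. The groups did not overlap, and EKO replicate 2 was highest. Means of 71.3 ± 32.2 CPM in EKO and 27.3 ± 3.98 CPM in WT (SD, n = 3 each) gave a 2.61-fold difference (log2 1.38 ± 0.32 SE, edgeR adjusted p = 0.0639, DESeq2 adjusted p = 0.00165, range 0.00165 to 0.229 over all alternatives). Leaving out single libraries kept its log2 difference between 0.93 and 1.58. Adamts8, which starts 20.1 kilobases from Adamts15, had 5, 8 and 17 counts in EKO and 10, 7 and 23 counts in WT, too few for the filter of the main test. Without WT replicate 2 it passed the filter, at a log2 difference of -0.60 and an edgeR adjusted p of 0.606.

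Adamts9 (ENSMUSG00000030022, chromosome 6, 92772699 to 92943492, minus strand), which cuts versican and is made by endothelial and other cells, was lower in EKO. Its levels were 28.5, 18.02 and 21.5 CPM in EKO and 38.2, 32.4 and 44.2 CPM in WT, without overlap. Means of 22.7 ± 5.36 CPM in EKO and 38.3 ± 5.90 CPM in WT (SD, n = 3 each) made it 1.69-fold lower (log2 -0.75 ± 0.21 SE, edgeR adjusted p = 0.0724, DESeq2 adjusted p = 0.0104, range 0.0104 to 0.231 over all alternatives). Without WT replicate 2 the log2 difference was -0.91. Endothelial markers lay on the same side, with 10 of 10 lower by their means and sums of 1093, 628 and 839 CPM in EKO and 1631, 1429 and 1685 CPM in WT; their part in the Adamts9 difference was not tested. Exons of Adamts9 share 9.18% of their bases with an opposite-strand gene that had 49 counts over all libraries.

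Adamts5 and Adamts1, neighbours 55.1 kilobases apart on chromosome 16, are known to cut aggrecan and versican. Adamts5 stood at 304, 232 and 258 CPM in EKO and at 420, 290 and 361 CPM in WT, so that EKO replicate 1 lay above WT replicate 2 and the groups overlapped (1.35-fold lower, edgeR adjusted p = 0.163). Its log2 difference was -0.43 with all libraries and -0.62 without WT replicate 2, where the edgeR adjusted p was 0.0852. Adamts1 stood at 59.4, 104 and 70.4 CPM in EKO and at 74.0, 58.4 and 118 CPM in WT. Its log2 difference of -0.10 ± 0.32 SE changed sign to 0.08 without EKO replicate 1 and 0.25 without WT replicate 3. Adamts4, an inducible aggrecanase, stood at 4.78, 11.5 and 4.23 CPM in EKO and at 4.24, 1.96 and 8.68 CPM in WT, with overlap. Adamts20, the seventh proteoglycanase, had at most 18 counts in a library. Among the proteoglycan substrates, Vcan (versican) was 2.59-fold higher by its means at 79.8, 172 and 80.0 CPM in EKO and 43.4, 27.1 and 57.5 CPM in WT, and the small proteoglycan Bgn 1.95-fold higher. The collagen-binding Lum stood at 308, 388 and 332 CPM in EKO and at 164, 128 and 188 CPM in WT, while Comp, a cartilage matrix protein, overlapped, with 29.7 CPM in WT replicate 2 and at most 4.24 CPM in any other library. The log2 difference of Comp was -2.19, and -0.37 without WT replicate 2. Lum had an edgeR adjusted p of 0.0628, and of 0.0470 without WT replicate 2. Of 8 tested substrate genes 4 were higher and 4 lower, with 3 higher and 1 lower (Comp) called by DESeq2, beside 11.7% and 11.3% of all genes, and 0 by edgeR.

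Most of the remaining ADAMTS proteases did not separate the genotypes. Adamts12, which cuts cartilage oligomeric matrix protein, was the exception at 89.9, 93.7 and 65.5 CPM in EKO and 56.1, 64.8 and 55.5 CPM in WT. Its lowest EKO value was only just above its highest WT value (1.41-fold, edgeR adjusted p = 0.0957, DESeq2 adjusted p = 0.0683). Adamts7, its close relative, stood at 13.3, 14.6 and 11.6 CPM in EKO and at 10.9, 12.4 and 12.1 CPM in WT. Adamts10, a protease bound to fibrillin microfibrils, stood at 76.7, 59.1 and 66.9 CPM in EKO and at 82.4, 56.0 and 90.3 CPM in WT, and its relative Adamts6 at 9.26, 4.23 and 7.38 CPM in EKO and 6.27, 5.61 and 8.37 CPM in WT. Adamts16, Adamts17 and Adamts18 were scarce, with means of 1.13, 0.524 and 0.292 CPM in EKO and 1.35, 0.754 and 1.40 CPM in WT. Adamts13, the plasma protease of von Willebrand factor, had 7, 9 and 6 counts in EKO and 0, 4 and 1 counts in WT, and Adamts19 at most 15 counts in a library. Over the 7 tested genes of this group 3 were higher and 4 lower.

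The ADAMTS-like proteins, which lack the zinc site, divided into members on either side. Adamtsl5 (ENSMUSG00000043822, chromosome 10, 80339110 to 80348412, minus strand), a heparin- and fibrillin-binding protein, stood at 51.5, 86.3 and 51.8 CPM in EKO and at 25.5, 15.2 and 33.4 CPM in WT. Means of 63.2 ± 19.99 CPM in EKO and 24.7 ± 9.11 CPM in WT (SD, n = 3 each) differed 2.55-fold (log2 1.35 ± 0.34 SE, edgeR adjusted p = 0.0669, DESeq2 adjusted p = 0.00445, range 0.00445 to 0.234 over all alternatives). Its groups did not overlap, and the log2 difference without WT replicate 2 was 1.04.

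Adamtsl1 (ENSMUSG00000066113, chromosome 4, 85514172 to 86428385, plus strand), a secreted matrix protein also called punctin, was lower at 4.78, 5.71 and 10.2 CPM in EKO and 10.9, 19.4 and 21.3 CPM in WT. The groups came close, at 10.2 CPM in EKO replicate 3 and 10.9 CPM in WT replicate 1, and the means of 6.89 ± 2.89 and 17.2 ± 5.53 CPM (EKO and WT, SD, n = 3 each) made it 2.49-fold lower (log2 -1.32 ± 0.39 SE, edgeR adjusted p = 0.0799, DESeq2 adjusted p = 0.00675, range 0.00675 to 0.263 over all alternatives). Adamtsl4, which promotes fibrillin fibre assembly and is known from eye lens anchoring, stood at 20.2, 11.2 and 17.2 CPM in EKO and at 30.0, 32.9 and 26.7 CPM in WT. It was 1.84-fold lower without overlap (edgeR adjusted p = 0.0706, DESeq2 adjusted p = 0.00498, range 0.00498 to 0.229 over all alternatives). Adamtsl3 stood at 10.9, 17.9 and 11.1 CPM in EKO and at 10.5, 4.03 and 10.01 CPM in WT, separate but with an edgeR adjusted p of 0.278. Adamtsl2, linked to geleophysic dysplasia in humans, averaged 5.58 ± 1.28 CPM in EKO and 4.19 ± 2.10 CPM in WT.

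Fibroblast and progenitor markers, whose cells make much of the matrix, were higher by their means in 11 of 12 cases, with sums of 8527, 11955 and 8270 CPM in EKO and 4447, 4660 and 6081 CPM in WT. Their part in the differences of the ADAMTS and ADAMTS-like genes was not tested. Lum, Col3a1 and Fbn1 are also among these markers. The list for smooth muscle and pericytes had 7 of 9 lower, with sums of 480, 340 and 474 CPM in EKO and 729, 678 and 807 CPM in WT, and mesothelial markers in 9 of 9, with sums of 79.8, 37.7 and 214 CPM in EKO and 136, 391 and 368 CPM in WT.

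Microfibril genes to which these proteins bind lay on both sides. Fbn1, the main fibrillin, was 2.82-fold higher by its means at 752, 1213 and 674 CPM in EKO and 316, 198 and 422 CPM in WT. The log2 difference of Fbn1 was 1.49, and 1.19 without WT replicate 2. Mfap5, a microfibril protein, was 2.53-fold and Efemp2, a fibulin, 1.86-fold higher. Ltbp4, which stores latent transforming growth factor beta, was 1.72-fold lower at 277, 154 and 300 CPM in EKO and 442, 373 and 440 CPM in WT. Of 17 tested genes 11 were higher and 6 lower, at a median log2 difference of 0.06, with 3 each way called by DESeq2, beside 11.7% higher and 11.3% lower of all genes, and 0 by edgeR.

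Partners and inhibitors of the proteases were described from gene lists in the same fit. Among partners of ADAM10 and ADAM17, the tetraspanin Tspan14, which carries ADAM10 to the surface, stood at 134, 203 and 142 CPM in EKO and at 92.4, 72.4 and 86.2 CPM in WT. Its relative Tspan5 stood at 53.0, 67.5 and 60.6 CPM in EKO and at 41.5, 40.7 and 40.2 CPM in WT. Frmd8, which stabilises the iRhom partner of ADAM17, was 1.70-fold higher at 71.2, 87.0 and 67.5 CPM in EKO and 46.3, 36.6 and 50.1 CPM in WT. Pcsk6, a proprotein convertase, was 2.92-fold lower at 29.7, 14.0 and 22.4 CPM in EKO and 69.4, 71.4 and 52.2 CPM in WT. Each of the 4 had groups that did not overlap and an edgeR adjusted p of 0.0628, the lowest of all genes tested. That value was a tie, also held by Lum, Mertk and Pcolce, and does not rank these 4 above other genes. Of 13 tested partners 7 were higher and 6 lower, with 3 each way called by DESeq2, where 11.7% of all genes were called higher and 11.3% lower, and 0 by edgeR.

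Ligands and receptors that are shed from the cell surface also lay on both sides. Mertk, a receptor for dying cells on macrophages, stood at 124, 93.1 and 84.8 CPM in EKO and at 59.8, 60.8 and 61.1 CPM in WT (1.66-fold higher). Nrg4, an adipocyte-made neuregulin, stood at 14.5, 5.20 and 11.8 CPM in EKO and at 49.1, 55.8 and 23.5 CPM in WT (4.07-fold lower). The insulin receptor Insr was 1.61-fold lower and Kitl, the stem cell factor, 1.36-fold higher, with separate groups. Of 35 tested genes 21 were higher and 14 lower, at a median log2 difference of 0.35 (0.10 without WT replicate 2). DESeq2 called 7 as higher and 4 as lower, against 11.7% and 11.3% of all genes, and edgeR 0. Adipocyte markers were lower in 11 of 12 cases, with sums of 20109, 12033 and 15004 CPM in the EKO libraries and 32759, 36368 and 25099 CPM in the WT libraries, and their part in the Nrg4 and Insr differences was not tested.

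The tissue inhibitors of metalloproteinases did not share a direction. Timp1 stood at 32.1, 130 and 44.5 CPM in EKO and at 7.57, 17.8 and 22.0 CPM in WT (4.36-fold higher), while the adipose inhibitor Timp4 stood at 134, 20.01 and 89.8 CPM in EKO and at 261, 546 and 255 CPM in WT (4.35-fold lower). Timp2 was 1.56-fold and Lrp1, the endocytic receptor that clears ADAMTS proteases, 2.03-fold higher by their means. Timp3, named after its values were seen, stood at 276, 108 and 231 CPM in EKO and at 374, 339 and 368 CPM in WT. Its groups did not overlap (1.76-fold lower, edgeR adjusted p = 0.149, DESeq2 adjusted p = 0.0508). Of 7 tested genes of this list, the receptor Lrp1 among them, 4 were higher and 3 lower. DESeq2 called 3 as higher and 1 as lower, against 11.7% and 11.3% of all genes, and edgeR called 0. Outside the naming rule, the related Thsd4 and Papln averaged 2.61 ± 2.00 and 8.20 ± 3.51 CPM in EKO and 4.93 ± 1.37 and 9.57 ± 1.37 CPM in WT, both with overlap.

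The 21 testis and epididymis ADAMs followed single libraries, not the genotypes. Adam2 and Adam3 are needed by mouse sperm to pass the oviduct and bind the egg coat, and Adam5, Adam18 and Adam32 are likewise known from testis. The summed level of all 21 genes was 3.72, 2.82 and 35.7 CPM in EKO and 9.38, 599 and 4.36 CPM in WT, so that WT replicate 2 held 91.4% of the sum over all libraries and EKO replicate 3 held 5.46%. In 20 of the 21 genes WT replicate 2 had the highest count, and in 18 of these EKO replicate 3 had the second highest. The exception was Adam7, an epididymal gene, with 0, 0 and 13 counts in EKO and 9, 6 and 0 counts in WT. The sperm protamine Prm1 was also highest in WT replicate 2 and next in EKO replicate 3, at 0, 0.321 and 14.5 CPM in EKO and 5.20, 412 and 0.462 CPM in WT. The 12 epididymis markers in the table, of which Adam7 itself is 1, summed to 0.413, 0.257 and 7.72 CPM in EKO and 2.66, 33.3 and 11.3 CPM in WT. In WT replicate 3, Crisp1 alone stood at 11.2 CPM and 10 of the 12 were at 0.

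**Figure D4:**
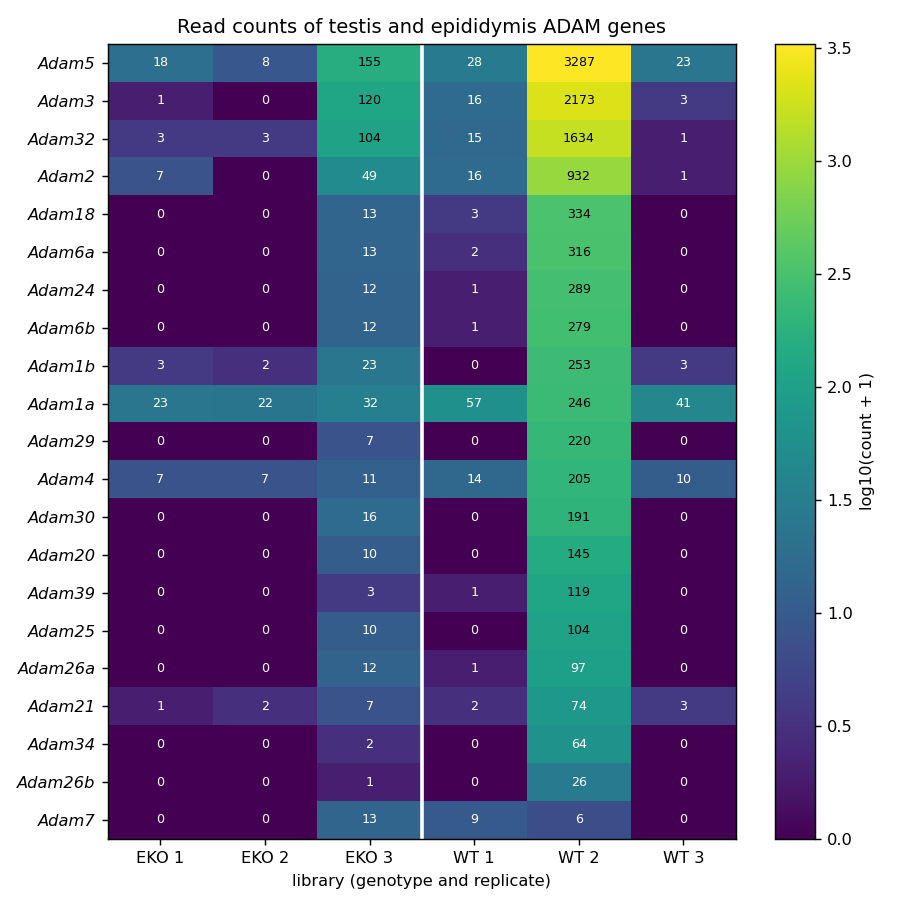
Read counts (numbers in the cells, colour as log10 of the count plus 1) of the 21 testis and epididymis ADAM genes in the 3 EKO and 3 WT libraries. WT replicate 2 has the highest count in 20 of 21 rows, from 26 to 3287, and EKO replicate 3 is second in 18 of these.

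Adam5 had 18, 8 and 155 counts in EKO and 28, 3287 and 23 counts in WT. Its fitted log2 difference of -4.11 ± 2.13 SE became 1.29 without WT replicate 2. Adam3 (1, 0 and 120 counts in EKO, 16, 2173 and 3 in WT) and Adam32 (3, 3 and 104 counts in EKO, 15, 1634 and 1 in WT) changed sign as well, to 2.09 and 2.19, as did Adam2 (7, 0 and 49 counts in EKO, 16, 932 and 1 in WT), to 1.14. Of these, Adam3, Adam5 and Adam32 lie next to Adam9 on chromosome 8, all on the minus strand. By rising coordinate, Adam18, Adam3, Adam5 and Adam32 follow each other with gaps of 2.5, 1.2 and 11.8 kilobases. A gap of 0.8 kilobases separates Adam32 from Adam9. Adam9, a gene used by most cells, did not follow WT replicate 2 upward and had its lowest level there, 168 CPM.

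Adam1a was the 1 tested gene of this group with separate groups, at 23, 22 and 32 counts in EKO and 57, 246 and 41 counts in WT (edgeR adjusted p = 0.117, DESeq2 adjusted p = 0.0240, range 0.0240 to 0.327 over all alternatives). Its log2 difference of -2.02 was -0.85 without WT replicate 2. Its counts are uncertain, because 63.65% of its exon bases are shared with the same-strand gene Gm42878 and 24.04% with Mapkapk5, and 45.9% of its coding words of 50 bases occur in Adam1b, which lies 15.1 kilobases away. Adam4, the last tested gene of the group, had 7, 7 and 11 counts in EKO and 14, 205 and 10 counts in WT. The counts of Adam20, Adam25 and Adam39, of Adam26a, Adam26b and Adam34, and of Adam6a and Adam6b are uncertain for the same reason, with up to 32.7% of such words in a related copy. The 14 other untested members with WT replicate 2 highest had at most 23 counts in any EKO library. In WT replicate 2 the counts were 334 for Adam18, 316 for Adam6a, 289 for Adam24, 279 for Adam6b, 253 for Adam1b, 220 for Adam29 and 191 for Adam30. They were 145 for Adam20, 119 for Adam39, 104 for Adam25, 97 for Adam26a, 74 for Adam21, 64 for Adam34 and 26 for Adam26b, while no other WT library had more than 3 counts of any of the 14.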

How the data were processed

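Per the labels, TRIzol was used to isolate total RNA, and an mRNA-seq kit gave the libraries. The authors deposited 1 table of raw read counts per gene on GRCm38 (build per the submitters' processing notes); the aligner, counter and strand use, not given in the sources used here, could shift counts of overlapping or near-identical genes. The deposited table also holds the authors' mean signal, fold change (ratio of EKO to WT), log2 fold change, p-value and adjusted p-value, per the file headers.

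Counts of all genes were fitted with edgeR 4.0.16 in R 4.3.3 (filterByExpr, TMM, quasi-likelihood F test, genotype as sole term, Benjamini-Hochberg over 16121 genes, threshold 0.05). Standard errors are the log2 difference divided by the square root of F. CPM per kilobase uses the union of GENCODE M21 exons, whose gene positions equal the table's for 54 of 57 members. Code was tested on simulated data. No 2 libraries of a genotype agreed within sampling noise (lowest chi-square divided by its degrees of freedom, 22.5). Alternatives were DESeq2 1.42.0, limma-voom (limma 3.58.1), other scalings and filters, a replicate block, single libraries left out, and, chosen after seeing the data, EKO replicate 3 and WT replicate 2 left out together.

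The members, the gene lists, the role groups and the tests were chosen with earlier results of these data known. Members were named with all 6 values where they averaged at least 5 CPM, or had separate groups and an unadjusted p under 0.05, and of each list the tested genes with the 4 smallest p were named. Role groups rest on textbook knowledge.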

Additional observations from a re-analysis of the deposited data

How the results depend on the processing

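The count of members called was 0 higher and 0 lower under every scaling and filter tried, under limma-voom, and with EKO replicate 3 and WT replicate 2 both left out; it was 5 and 4 with DESeq2, 6 and 3 at an adjusted p under 0.10, and 0 to 1 and 0 to 0 when single libraries were left out, the 1 being Adam8 without WT replicate 2. Genes of the partner lists called numbered 25 higher and 13 lower of 90 tested with DESeq2 (11.7% and 11.3% of all genes) and 0 to 2 and 0 to 1 with single libraries left out, the calls being Lum and Trem2 (higher) and Rhbdf1 (lower) without WT replicate 2. The median log2 difference was -0.52 without a count filter, which adds the scarce testis ADAMs, 0.19 with EKO replicate 3 and WT replicate 2 both left out, and -0.46 to 0.09 with single libraries left out, as the number of members tested changed. Members with separate groups numbered 10 to 13 higher and 4 to 9 lower with single libraries left out, and 9 lower with those 2 libraries left out. Groups of 2 libraries separate more readily than groups of 3, and the share of all genes was not counted in those fits. Nor was the share of all genes at an adjusted p under 0.10 counted, so neither set of counts is a result about the members. Of 417 values of named members under alternatives, 400 kept their direction, and 8 members reversed in at least 1: Adamts6 (-0.0047 with DESeq2 size factors, -0.05 with library totals, -0.01 without a filter, -0.0041 with DESeq2, -0.18 without EKO replicate 3 and WT replicate 2, -0.20 to 0.28 with single libraries left out), Adam15 (-0.05 to 0.29), Adamts1 (-0.39 to 0.25), Adamts4 (-0.17 to 1.15), Adam2 (-6.30 to 1.14), Adam3 (-10.04 to 2.09), Adam5 (-6.24 to 1.29) and Adam32 (-7.28 to 2.19). The cause of the other shifts was not tested.

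With the replicate number as a block, 0 members were called either way, and Adamts6 was at -0.01. The numbers were not shown to pair the samples. Deviations of same-numbered libraries correlated at 0.27, -0.31 and -0.35, and not every library correlated best with its own number. The highest correlation, 0.45, was between EKO replicate 3 and WT replicate 2. Correlations of this kind do not settle whether same-numbered samples were handled together.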
